A study of Mus musculus with 11 samples.

Results

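The m6A reader transcripts of mouse heart were examined as the 8 genes of the YTH and IGF2BP families, found by symbol among the 54532 genes of the count table: Ythdf1, Ythdf2, Ythdf3, Ythdc1, Ythdc2, Igf2bp1, Igf2bp2 and Igf2bp3. Of these 8 readers, 7 passed the filter on low counts and were tested, and Igf2bp1 did not. Whole hearts of C57BL/6 mice were sequenced at 26 weeks in 3 groups: chow (n = 3), HFD+STZ (n = 4), and HFD+STZ with AAV METTL3 (n = 4), the last called METTL3 here. In this field HFD commonly stands for a diet rich in fat, STZ for streptozotocin, which kills pancreatic beta cells, and AAV for adeno-associated virus, but the labels do not spell them out. The labels describe the series as a comparison of control and METTL3 overexpression, and give no virus for the chow and HFD+STZ hearts, so AAV delivery and METTL3 cannot be told apart. They give no promoter, serotype or species of the METTL3 sequence, and no sex of the animals.

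N6-methyladenosine, or m6A, is a methyl mark that the METTL3 and METTL14 methyltransferase complex places on adenosines of messenger RNA. Readers are the proteins that bind the marked RNA: the YTH proteins hold the methylated base in a pocket of the YTH domain, and IGF2BP proteins bind through KH domains. The YTHDF proteins act in the cytoplasm and are best known for promoting decay of marked RNA, YTHDC1 acts in the nucleus on splicing and export, YTHDC2 is a helicase known for its role in germ cells, and the IGF2BP proteins stabilise bound RNA. IGF2BP1 and IGF2BP3 are known as oncofetal proteins that are low in most adult tissues.

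Mettl3, the gene named in the treatment, had 7.88, 7.42 and 3.04 CPM (counts scaled to a common library size) in the 3 chow hearts, 7.82, 7.42, 4.39 and 5.78 CPM in the HFD+STZ hearts, and 9.64, 6.52, 6.57 and 10.8 CPM in the METTL3 hearts. The groups overlapped, and METTL3 hearts differed from HFD+STZ hearts by a log2 fold change of 0.40 (SE 0.32, edgeR quasi-likelihood test, Benjamini-Hochberg adjusted p = 0.759). Total counts were 13900531 to 16952639 per library. Mitochondrial genes took 25.3%, 27.4% and 9.28% of the counts in the 3 chow hearts, 28.6% to 32.5% in HFD+STZ and 37.7% to 45.5% in METTL3 hearts, so chow replicate 3 stood apart and the METTL3 hearts had the fewest nuclear counts. All 9 cardiomyocyte markers had counts in every library, summing to 33300 to 47300 CPM. The sample codes in the labels fall in a range of 25 to 33 and one of 78 to 98, and the second holds all chow hearts, HFD+STZ replicate 1 and METTL3 replicate 4.

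The promoters of 3 readers are shown because their genes lie at different levels in these hearts: Ythdc1 is highest of the 3, Igf2bp2 is lower and Igf2bp3 is close to undetected. Each is the 250 bases before the gene start that RefSeq gives on GRCm38.p6, 5′ to 3′ on the gene's strand, with each CG dinucleotide (the same letters on both strands) in capitals. The windows are chr5:86804016-86804265 on the plus strand, chr16:22163300-22163549 on the minus strand and chr6:49214955-49215204 on the minus strand. The gene starts in the count table differ, so 45 bases of the Ythdc1 window and 3 of the Igf2bp3 window lie inside the gene as the table gives it, and 0 of the Igf2bp2 window.
Ythdc1: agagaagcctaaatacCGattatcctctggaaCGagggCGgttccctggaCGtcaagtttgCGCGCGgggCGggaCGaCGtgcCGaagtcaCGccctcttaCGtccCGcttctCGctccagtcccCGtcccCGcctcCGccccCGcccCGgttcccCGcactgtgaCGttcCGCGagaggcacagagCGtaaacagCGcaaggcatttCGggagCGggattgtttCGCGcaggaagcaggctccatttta
Igf2bp2: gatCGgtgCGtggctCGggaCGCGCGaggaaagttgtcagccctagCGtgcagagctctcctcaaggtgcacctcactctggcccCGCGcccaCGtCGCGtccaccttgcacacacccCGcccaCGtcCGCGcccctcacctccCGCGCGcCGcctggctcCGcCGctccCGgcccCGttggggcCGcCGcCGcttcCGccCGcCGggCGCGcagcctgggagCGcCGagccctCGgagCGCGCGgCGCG
Igf2bp3: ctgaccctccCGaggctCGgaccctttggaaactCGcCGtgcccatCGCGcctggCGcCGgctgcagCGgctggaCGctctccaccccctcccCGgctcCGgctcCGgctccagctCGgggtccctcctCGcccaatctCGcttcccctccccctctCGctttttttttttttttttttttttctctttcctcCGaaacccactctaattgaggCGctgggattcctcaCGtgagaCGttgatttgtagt
All of them were rich in CG: 30 in Ythdc1, 40 in Igf2bp2 and 21 in Igf2bp3, against a median of 6 over 32851 promoter windows of the same length. At least as many CG were found in 5.94%, 1.31% and 16.3% of all windows, respectively. The windows of Ythdf1 and Ythdf2 held 30 and 22. The order of CG counts was not the order of levels, since the low Igf2bp2 had the most. This is a description of the letters, since no promoter measurement was made.

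The readers covered a wide range of levels. Per kilobase of exon length (CPM divided by the gene length in the count table, mean of 11 libraries), Ythdf3 was highest at 16.3 and Ythdf1 followed at 13.0, ahead of Ythdf2 at 5.02, Ythdc1 at 2.92, Ythdc2 at 1.55, Igf2bp2 at 0.722 and Igf2bp3 at 0.0478. The cytoplasmic YTHDF readers thus lay in the upper part of the expressed genes, with 86.3%, 83.1% and 63.6% of the tested genes below Ythdf3, Ythdf1 and Ythdf2 on this scale. Ythdf3 lay above Ythdf1 in 10 of 11 libraries, all but chow replicate 3, and their ranges over libraries overlapped (10.7 to 23.5 against 10.9 to 16.7). Ythdf1 exceeded Ythdf2, and Ythdf2 exceeded Ythdc1, in 11 of 11 libraries with no overlap of ranges. The ranges of Ythdc1 and Ythdc2 overlapped, as did those of Ythdc2 and Igf2bp2. The place of Ythdc1 depended on the length used: its length in the file was 13651 bases and its longest coding transcript 3269, and by the coding transcript it reached 12.2 CPM per kilobase, next to Ythdf1 at 13.5. By the coding transcript, Ythdf1 lay above Ythdc1 in 10 of 11 libraries and their ranges overlapped.

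**Figure D1:**
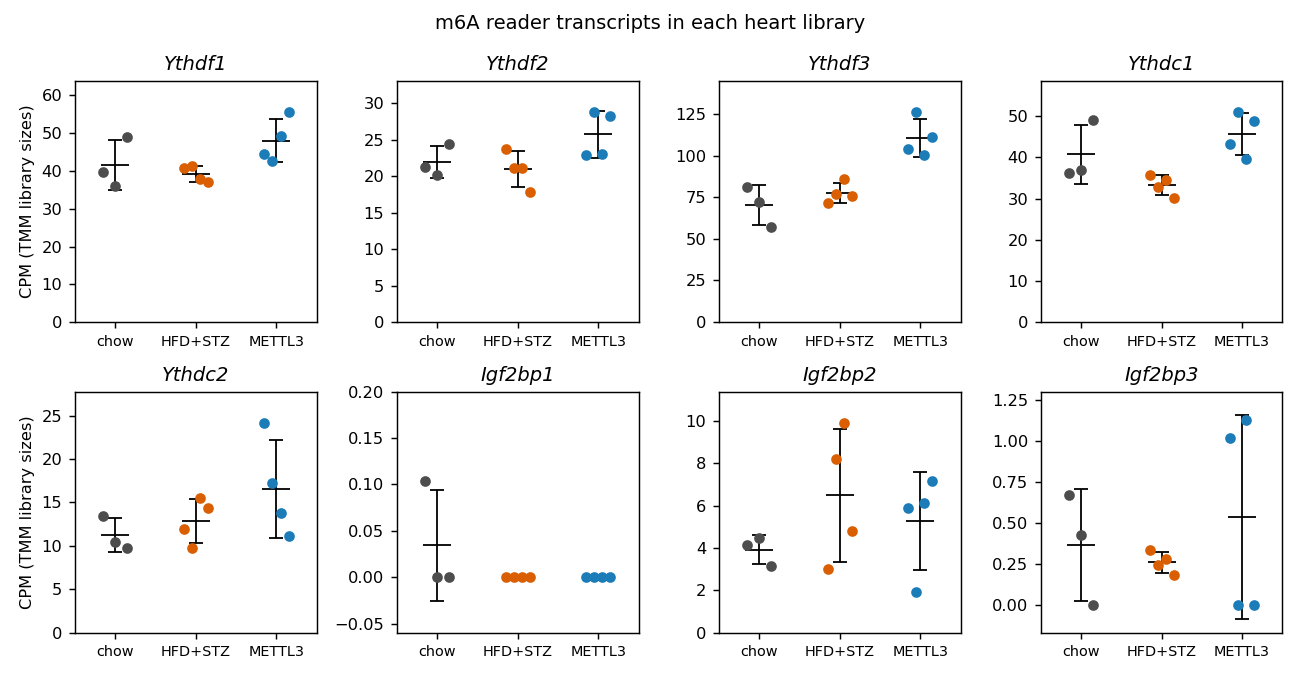
CPM with TMM library sizes (vertical axis, a scale of its own for each gene) of the 8 readers in every library of chow (n = 3), HFD+STZ (n = 4) and METTL3 hearts (n = 4); points are libraries, and bars are the mean and SD. The 4 METTL3 hearts lie between 100.2 and 125.9 CPM for Ythdf3, all above the other 7 hearts, and Igf2bp1 and Igf2bp3 lie near 0.

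Of the YTHDF readers, Ythdf3 had the largest differences in CPM between METTL3 hearts and the other groups. In METTL3 against HFD+STZ, log2 fold changes were 0.29 for Ythdf1, 0.30 for Ythdf2 and 0.50 for Ythdf3. With offsets for transcript GC content and length they were 0.36, 0.26 and 0.14, each with an edgeR adjusted p of 0.99. Whether these values differ between the readers was not tested. Ythdf3 (ENSMUSG00000047213, chromosome 3, 16183212 to 16217037, plus strand, mm10) encodes a cytoplasmic reader known to act with its paralogs in RNA decay and, in some reports, in translation. It had 81.0, 72.1 and 57.4 CPM in chow, 71.8, 77.2, 86.1 and 75.9 CPM in HFD+STZ, and 103.7, 125.9, 100.2 and 111.4 CPM in METTL3 hearts. Every METTL3 heart lay above every other heart, while chow and HFD+STZ hearts overlapped. Of all tested genes, 9.57% had no overlap in either direction between METTL3 and HFD+STZ hearts, and 18.7% had none between METTL3 and chow hearts. The share that separated from both at once was not counted. The METTL3 to HFD+STZ fold was 1.42 (95% interval 1.13 to 1.79; log2 fold change 0.50, SE 0.15; unadjusted p = 0.00592), and it missed the threshold after adjustment over 14862 genes (edgeR, Benjamini-Hochberg adjusted p = 0.388). Against chow the fold was 1.57 (95% interval 1.22 to 2.02; log2 fold change 0.65, SE 0.17), with an edgeR adjusted p of 0.0544 that lay just above the 0.05 threshold. HFD+STZ and chow hearts differed by 0.15 (SE 0.17) on the log2 scale, with a 95% interval of -0.21 to 0.51.

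Raw counts of Ythdf3 did not separate the groups. They were 1563, 1341 and 1019 in chow, 1286, 1270, 1235 and 1246 in HFD+STZ, and 1324, 1506, 1327 and 1243 in METTL3 hearts. The difference in CPM therefore rests on library sizes, which TMM scales to the bulk of genes. With total counts and no TMM factors, an alternative added after seeing the data, the median of all genes moved to -0.24 for METTL3 against HFD+STZ, and Ythdf3 stood at 0.27 on the log2 scale. Against chow the median moved to -0.50, and Ythdf3 went from 0.65 to 0.16. Bulk counts cannot tell fewer cells of a type from less RNA per cell.

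Ythdf1 and Ythdf2 encode the paralogs of YTHDF3; YTHDF2 is the one best known for recruiting deadenylases. Ythdf1 (ENSMUSG00000038848, chromosome 2, 180904377 to 180920949, minus strand) had 39.8, 36.1 and 48.9 CPM in chow, 40.7, 41.2, 38.0 and 37.0 CPM in HFD+STZ and 44.4, 42.7, 49.2 and 55.5 CPM in METTL3 hearts. All METTL3 hearts lay above all HFD+STZ hearts (9.57% of all genes had no overlap there), and chow replicate 3 lay among the METTL3 hearts. The log2 fold change of METTL3 against HFD+STZ was 0.29 (SE 0.15, edgeR adjusted p = 0.596). Ythdf2 (ENSMUSG00000040025, chromosome 4, 132184912 to 132212303, minus strand) had 21.3, 20.2 and 24.4 CPM in chow, 23.8, 21.1, 21.1 and 17.8 CPM in HFD+STZ and 22.9, 28.8, 23.1 and 28.3 CPM in METTL3 hearts. Its groups overlapped, and METTL3 against HFD+STZ gave 0.30 (SE 0.16, edgeR adjusted p = 0.603). Against chow, METTL3 hearts differed by 0.21 (SE 0.16) for Ythdf1 and 0.23 (SE 0.17) for Ythdf2, and HFD+STZ hearts by -0.08 (SE 0.16) and -0.07 (SE 0.17). None of these passed the threshold.

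Ratios between the YTHDF paralogs within a library do not depend on library size. Per kilobase, Ythdf1 exceeded Ythdf2 by a log2 ratio of 1.38 ± 0.0817 (SD, n = 3) in chow, 1.37 ± 0.126 (n = 4) in HFD+STZ and 1.36 ± 0.226 (n = 4) in METTL3 hearts. The Ythdf3 to Ythdf2 log2 ratio was 1.70, 1.61 and 1.00 in chow, 1.36, 1.64, 1.80 and 1.86 in HFD+STZ, and 1.95, 1.90, 1.89 and 1.75 in METTL3 hearts. The METTL3 hearts lay above all chow hearts and overlapped the HFD+STZ hearts. The difference from chow was 0.43 (two-sided exact permutation test p = 0.0286, the smallest this design allows, Benjamini-Hochberg adjusted p = 0.257 over 9 tests). Leaving out chow replicate 3 gave 0.22, and leaving out chow replicate 1 gave 0.56. In METTL3 against chow, the median log2 fold change of all tested genes was 0.40 at a transcript GC content of 35% to 40%. At 45% to 50% it was 0.05. Ythdf3 lies in the first range, at 38.44%, and Ythdf2 in the second, at 46.06%. The ratios had no offset for GC content, and its part in them was not tested. The Ythdf3 to Ythdf1 ratio was 0.06 ± 0.45 (SD, n = 3) in chow, 0.29 ± 0.157 (n = 4) in HFD+STZ and 0.51 ± 0.257 (n = 4) in METTL3 hearts. In chow replicate 3 alone, Ythdf3 lay below Ythdf1 per kilobase, with a linear ratio of 0.726 against 1.09 to 1.82 in the other libraries. None of the 9 differences passed after adjustment. A lone test at the smallest p, 0.0286, adjusts to 0.257 over 9 tests, so not passing does not show equal ratios.

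**Figure D2:**
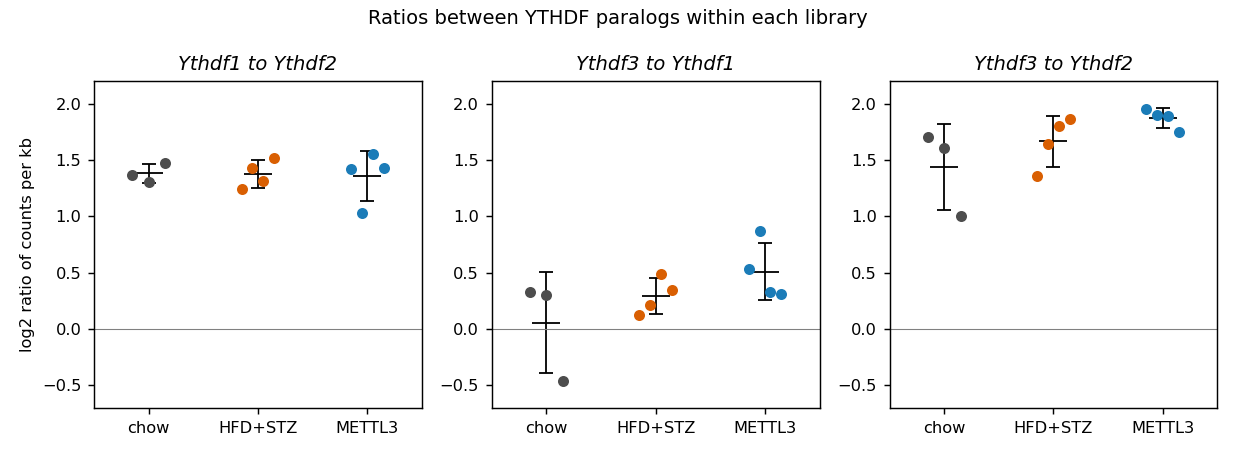
Log2 ratio of counts per kilobase between YTHDF paralogs within each library (vertical axis), by group; points are libraries, bars are the mean and SD, and the line at 0 marks equal levels. The Ythdf1 to Ythdf2 ratio is centred near 1.37 in every group, whereas for Ythdf3 to Ythdf2 the 4 METTL3 hearts lie above the 3 chow hearts.

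The nuclear reader Ythdc1 was the other reader whose METTL3 and HFD+STZ libraries separated with an unadjusted p under the threshold. Ythdc1 (ENSMUSG00000035851, chromosome 5, 86804221 to 86836659, plus strand) had 36.2, 37.0 and 49.0 CPM in chow, 35.7, 32.8, 34.4 and 30.2 CPM in HFD+STZ and 43.3, 50.9, 39.7 and 48.9 CPM in METTL3 hearts. HFD+STZ hearts lay below all other hearts, and METTL3 and chow hearts overlapped. Of all tested genes, 10.4% had no overlap between HFD+STZ and chow hearts, and 9.57% had none between METTL3 and HFD+STZ hearts. METTL3 against HFD+STZ gave a fold of 1.37 (95% interval 1.09 to 1.73; log2 fold change 0.46, SE 0.15; unadjusted p = 0.0102; edgeR adjusted p = 0.422). HFD+STZ against chow gave a log2 fold change of -0.29 (SE 0.16, edgeR adjusted p = 0.476), with a 95% interval of -0.64 to 0.06, and -0.13 without chow replicate 3. METTL3 against chow gave 0.17 (SE 0.16, edgeR adjusted p = 0.6).

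Ythdc2 (ENSMUSG00000034653, chromosome 18, 44827746 to 44889724, plus strand), which encodes an RNA helicase with a YTH domain, varied more among METTL3 hearts than among chow or HFD+STZ hearts. It had 13.5, 10.5 and 9.80 CPM in chow, 12.0, 9.79, 15.5 and 14.4 CPM in HFD+STZ and 24.1, 17.3, 13.8 and 11.1 CPM in METTL3 hearts. METTL3 replicate 1 was the highest, and METTL3 replicate 2 also lay above every chow and HFD+STZ heart. METTL3 replicate 3 lay above every chow heart and within the HFD+STZ range, and METTL3 replicate 4 lay within the ranges of both groups. The log2 fold change was 0.36 (SE 0.25, edgeR adjusted p = 0.691) against HFD+STZ and 0.13 without METTL3 replicate 1. Against chow it was 0.56 (SE 0.27, edgeR adjusted p = 0.247), 0.32 without METTL3 replicate 1 and 0.20 with GC and length offsets.

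Among the IGF2BP readers, which stabilise bound RNA, Igf2bp2 alone was readily measured. Igf2bp2 (ENSMUSG00000033581, chromosome 16, 22059009 to 22163299, minus strand) encodes the member of the family best known from adult tissues. It had 4.15, 4.46 and 3.15 CPM in chow, 3.02, 8.21, 9.90 and 4.81 CPM in HFD+STZ and 5.88, 1.92, 6.12 and 7.17 CPM in METTL3 hearts, from 23 to 142 counts per library. Both HFD+STZ and METTL3 hearts spread on either side of the chow range. The log2 fold change of HFD+STZ against chow was 0.72 (SE 0.46, 95% interval -0.27 to 1.71, edgeR adjusted p = 0.527), and it was 0.44 without HFD+STZ replicate 3 and 0.96 without HFD+STZ replicate 1. METTL3 against HFD+STZ gave -0.30 (SE 0.42, edgeR adjusted p = 0.886), a value that moved to -0.02 without METTL3 replicate 2 or without HFD+STZ replicate 3. A change of either sign could not be told from no change at this spread.

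Igf2bp3 and Igf2bp1 were at or near the detection limit. Igf2bp3 (ENSMUSG00000029814, chromosome 6, 49085223 to 49214957, minus strand) had 13, 8 and 0 counts in chow, 6, 4, 4 and 3 counts in HFD+STZ and 13, 0, 15 and 0 counts in METTL3 hearts. Its exons overlap those of Malsu1, a mitochondrial ribosome assembly factor on the opposite strand, over 1529 bases. Malsu1 had 4295 counts over all libraries against 66 for Igf2bp3. In the same library order, Malsu1 had 316, 432 and 990 counts in chow and 421, 401, 339 and 317 in HFD+STZ. METTL3 hearts had 284, 243, 236 and 316. Whether counting used strand is not stated. Igf2bp3 counts are therefore uncertain, and its edgeR log2 fold change of 1.05 for METTL3 against HFD+STZ had an SE of 1.16. Igf2bp1 (ENSMUSG00000013415, chromosome 11, 95957163 to 96005940, minus strand) had 2 counts in chow replicate 1 and 0 in the other 10 libraries, where a count of 0 allows up to 3 counts, or 0.161 to 0.269 CPM. These limits cover counting error only.

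No reader passed the threshold between HFD+STZ and chow hearts by any of the tools used. In HFD+STZ against chow, 0 of 7 readers passed the edgeR threshold, where 0.168% of all tested genes did. At an unadjusted p under 0.05 the count was 0 of 7 (all genes 12.1%), by DESeq2 0 of 6 with an adjusted p (all genes 2.14%) and by limma voom with quality weights 0 of 7 (all genes 13.1%). The libraries of the groups did not overlap for 1 of 7 readers, Ythdc1, against 10.4% of all genes. The median log2 fold change of the readers was -0.07, with 3 of 7 above 0, and that of all genes -0.02, with 48.4% above 0.

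In METTL3 against HFD+STZ, 0 of 7 readers and 0.0% of all genes passed the edgeR threshold. At an unadjusted p under 0.05, 2 of 7 readers were counted, Ythdf3 and Ythdc1, against 9.06% of all genes. DESeq2 called 0 of 6 readers (all genes 1.11%), and limma voom called 1 of 7, Ythdf3 (log2 fold change 0.45, adjusted p = 0.0459; all genes 2.66%). The libraries did not overlap for 3 of 7 readers, Ythdf1, Ythdf3 and Ythdc1, against 9.57% of all genes. The median log2 fold change of the readers was 0.37, with 6 of 7 above 0, all but Igf2bp2. The 6 include Igf2bp3 at 1.05 (SE 1.16), which rests on few counts. For all genes the median was -0.00364, with 49.6% above 0. With GC and length offsets the median of the readers was 0.14, with 6 of 7 above 0, and that of all genes 0.04.

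In METTL3 against chow, 0 of 7 readers passed the edgeR threshold (all genes 3.2%), and 1 of 7, Ythdf3, had an unadjusted p under 0.05 (all genes 21.7%). DESeq2 called 1 of 7, Ythdf3 (log2 fold change 0.64, adjusted p = 0.0027; all genes 10.2%). Limma voom called 2 of 7, Ythdf1 (0.38, adjusted p = 0.0299) and Ythdf3 (0.55, adjusted p = 0.00408), against 20.7% of all genes. The libraries did not overlap for 1 of 7 readers, Ythdf3, against 18.7% of all genes. The median over readers was 0.43, with 7 of 7 above 0, and over all genes -0.01, with 49.2% above 0. That median is the value of Igf2bp2 alone (SE 0.46), and the 7 include Igf2bp3 at 0.55 (SE 1.22). Igf2bp3 did not pass the filter without METTL3 replicate 1 or without METTL3 replicate 3. In those fits 6 of 6 readers were above 0, with medians of 0.30 and 0.31. With GC and length offsets the readers' median was 0.19, with 6 of 7 above 0. With total counts and no TMM factors it was -0.06, with 3 of 7 above 0, where that of all genes was -0.50. This comparison shares its METTL3 libraries with the METTL3 and HFD+STZ comparison and its chow libraries with the HFD+STZ and chow comparison, so the counts are not independent.

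**Figure D3:**
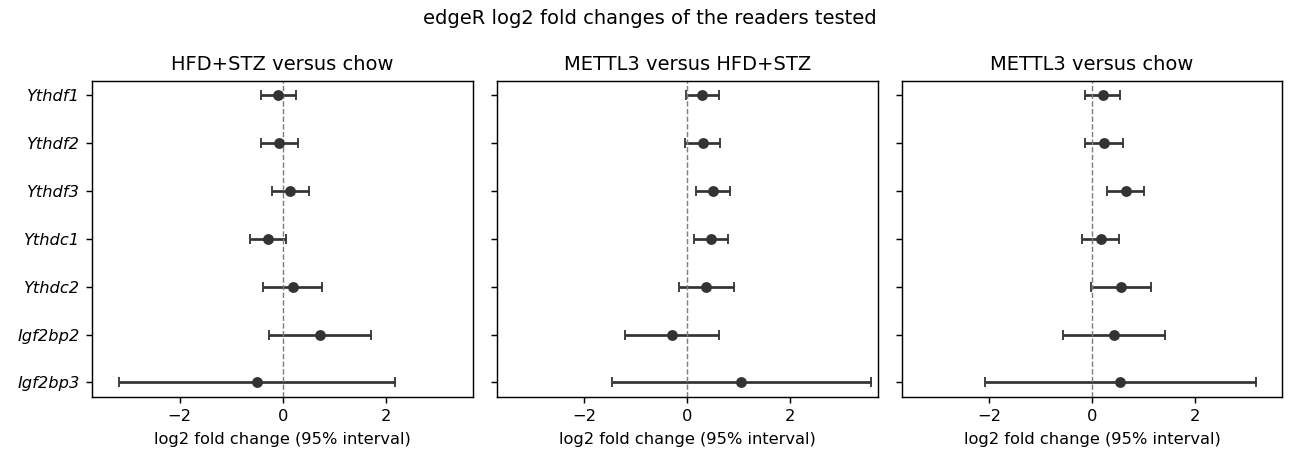
edgeR log2 fold changes (horizontal axis) of the 7 readers tested in the 3 comparisons, with 95% intervals as bars and a dashed line at no change. The Ythdf3 and Ythdc1 intervals lie above 0 in METTL3 against HFD+STZ, only that of Ythdf3 does so in METTL3 against chow, and the Igf2bp3 interval is the widest.

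Base composition moved with the METTL3 comparisons. Over all tested genes, the median log2 fold change of METTL3 against HFD+STZ was 0.42 for the 898 genes with a transcript GC content of 35% to 40%, 0.22 at 40% to 45%, 0.04 at 45% to 50%, -0.12 at 50% to 55% and -0.22 at 55% to 60%. In HFD+STZ against chow the same medians lay between -0.04 and 0.00119. The longest transcript of Ythdf3 has a GC content of 38.44%, that of Ythdc1 37.64% and that of Ythdc2 41.98%, so these readers lie among genes that were higher in METTL3 hearts as a group. With offsets for GC content and length, the Ythdf3 log2 fold change of METTL3 against HFD+STZ went from 0.50 to 0.14 (SE 0.14) and that of Ythdc2 from 0.36 to 0.14. Ythdf1, at 49.09% GC, was at 0.36 with the offsets, and Ythdf2, at 46.06%, at 0.26.

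The value of Ythdc1 depended on which transcript set its offset. Its longest transcript, of 6313 bases, gave 0.05 (SE 0.21). Its longest coding transcript has 44.85% GC, and offsets from coding transcripts, an alternative added after seeing the data, gave 0.36 (SE 0.18, edgeR adjusted p = 0.99), where Ythdf3 stood at 0.11 (SE 0.14). Against chow, the Ythdf3 value was 0.65 without offsets, 0.19 with those of the longest transcript (edgeR adjusted p = 0.524) and 0.15 with those of the longest coding transcript (adjusted p = 0.632). No reader passed the threshold in any comparison with either offset.

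**Figure D4:**
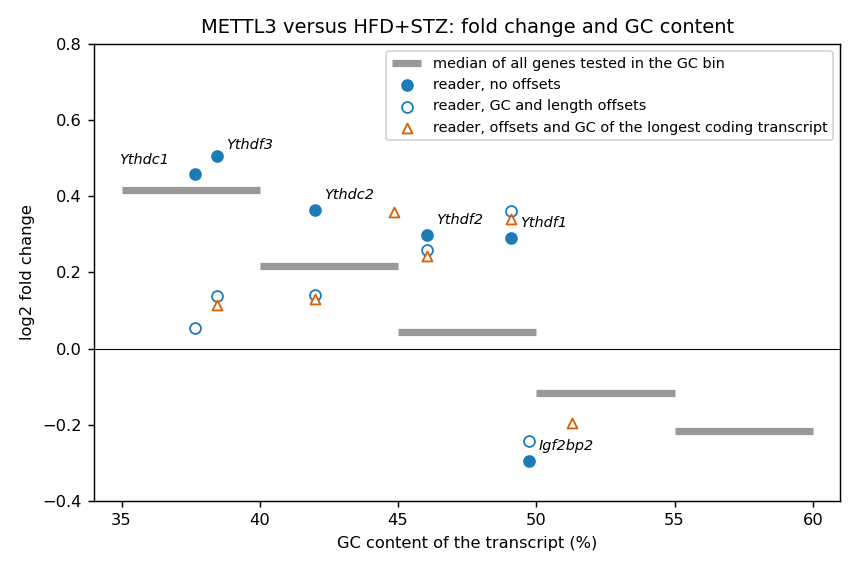
Log2 fold change of METTL3 against HFD+STZ (vertical axis) by transcript GC content (horizontal axis, %); grey bars are medians of all tested genes in 5% bins, filled circles are 6 readers without offsets, open circles with GC and length offsets, and triangles with offsets from the longest coding transcript, drawn at its GC content. Ythdf3 goes from 0.50 to 0.14 with offsets and Ythdf1 from 0.29 to 0.36.

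Cell type markers and the share of mitochondrial counts also differed with the METTL3 group. The summed level of 5 Schwann cell markers was 24.7 to 35.4 CPM in METTL3 hearts, 12.3 to 19 CPM in HFD+STZ and 12.3 to 21.4 CPM in chow hearts, with 4 of 5 markers counted in every library of each group. Of the 4 Schwann cell markers tested, 3 were above 0 in log2 fold change for METTL3 against chow (median 0.695), and S100b was at -0.89. For METTL3 against HFD+STZ, 4 of 4 were above 0 (median 0.87). The summed level of 8 macrophage markers was 106 to 186 CPM in METTL3, 174 to 356 CPM in HFD+STZ and 257 to 505 CPM in chow hearts, with 8 of 8 counted in every library. The 7 smooth muscle and pericyte markers were counted in every library. They summed to 1690 to 2170 CPM in METTL3, 1160 to 1690 CPM in HFD+STZ and 1390 to 1700 CPM in chow hearts. The single markers did not all follow the sum. Of the 7, 3 were above 0 in log2 fold change for METTL3 against chow (median -0.08). Against HFD+STZ, 5 of 7 were above 0 (median 0.20). Neutrophil markers summed to 1.96 to 7.13 CPM in METTL3, 3.23 to 36.9 CPM in HFD+STZ and 4.97 to 6.92 CPM in chow hearts, and 0 of the 4 tested were above 0 in log2 fold change for METTL3 against HFD+STZ (median -2.25). Their part in the reader values was not tested, and neither was that of the mitochondrial share. With library sizes from nuclear counts, scaled by TMM as in the main fit, Ythdf3 stood at 0.50 in METTL3 against HFD+STZ. TMM scales both fits to the bulk of genes, so this value does not test the mitochondrial share. Hearts with codes 25 to 33 are HFD+STZ replicates 2 to 4 and METTL3 replicates 1 to 3. Among them alone, Ythdf3 stood at 0.46 (edgeR adjusted p = 0.164) and Ythdc1 at 0.45 (adjusted p = 0.166) in that comparison. That fit had no offsets for GC content.

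The wider m6A pathway, in 7 lists that were chosen with results of these data known, gave few calls. None of the 9 m6A writers and none of the 2 erasers passed the edgeR threshold in any comparison, where 0.168% (HFD+STZ against chow), 0.0% (METTL3 against HFD+STZ) and 3.2% (METTL3 against chow) of all genes did. The writers with the smallest p were Rbm15, an adaptor of the methyltransferase complex, at 0.29 (SE 0.18, adjusted p = 0.658) and Mettl16, a separate methyltransferase, at -0.25 (SE 0.17, adjusted p = 0.691), both in METTL3 against HFD+STZ. The demethylases Fto and Alkbh5 gave -0.26 (SE 0.19) in METTL3 against HFD+STZ and 0.10 (SE 0.23) in HFD+STZ against chow. Of 10 other proposed m6A-binding proteins none passed; Fmr1, the fragile X protein gene, stood at 0.67 (SE 0.20, edgeR adjusted p = 0.373) and Rbmx, a splicing regulator, at 0.45 (SE 0.21, adjusted p = 0.55) in METTL3 against HFD+STZ. The median of the 9 writers there was 0.08, and that of the 10 binding proteins 0.11, against -0.00364 for all genes.

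Among 14 partners of YTHDF proteins in mRNA decay, 1 passed the threshold, in METTL3 against chow (3.2% of all genes did), and none in the other comparisons. It was Cnot7, a catalytic deadenylase of the CCR4-NOT complex that YTHDF2 recruits. Cnot7 had 42.1, 38.6 and 45.8 CPM in chow and 64.7, 85.4, 72.0 and 66.4 CPM in METTL3 hearts, with no overlap (as for 18.7% of all genes), and HFD+STZ hearts had 39.2 to 52.1 CPM. It rose by a log2 fold change of 0.77 (SE 0.17, edgeR adjusted p = 0.0329). That call was lost in 13 of 24 alternatives: the value was 0.30 with GC and length offsets (adjusted p = 0.352), 0.41 with coding transcript offsets (adjusted p = 0.214), 0.29 with total counts and no TMM factors and 0.84 with the replicate block (adjusted p = 0.125). It was also lost without chow replicate 2, HFD+STZ replicate 2 or any one of the METTL3 replicates, where adjusted p lay between 0.0571 and 0.0996. The median of the 14 partners in METTL3 against chow was 0.17, with 9 of 14 above 0, against -0.01 for all genes.

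No partner of the YTHDC or IGF2BP readers passed in any comparison. Of 6 YTHDC partners 5 were tested; Srsf3, a splicing factor that binds YTHDC1, stood at -0.93 (SE 0.36, edgeR adjusted p = 0.342) in HFD+STZ against chow, and Rbm7, an RNA exosome adaptor, at 0.41 (SE 0.20, adjusted p = 0.558) in METTL3 against HFD+STZ. Of 9 IGF2BP partners, Ybx1, an mRNA-packaging protein, stood at -0.56 (SE 0.20, edgeR adjusted p = 0.447) in METTL3 against HFD+STZ. Syncrip, an RNA-binding protein of the hnRNP family, stood at 0.38 (SE 0.15, adjusted p = 0.167) in METTL3 against chow. The medians of these lists in METTL3 against HFD+STZ were 0.29 and 0.14.

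Among fetal growth genes linked to IGF2BP proteins, 5 of 8 were tested and 1 rose in METTL3 against chow, where 3.2% of all genes were called in either direction. H19, an imprinted noncoding RNA that IGF2BP proteins bind, had 6.89, 6.67 and 9.51 CPM in chow, 14.3, 28.9, 9.90 and 16.6 CPM in HFD+STZ and 21.7, 36.9, 12.5 and 45.6 CPM in METTL3 hearts. Every chow heart lay below every other heart, and the HFD+STZ and METTL3 hearts overlapped. Over all genes, 10.4% had no overlap between chow and HFD+STZ hearts and 18.7% none between chow and METTL3 hearts. The log2 fold change was 1.92 (SE 0.44, edgeR adjusted p = 0.0405) for METTL3 against chow and 1.18 (SE 0.43, adjusted p = 0.33) for HFD+STZ against chow. With GC and length offsets the first was 2.14 (adjusted p = 0.0372). It was lost in 10 of 24 alternatives, among them the fit of only the groups compared (1.90, adjusted p = 0.0946), the replicate block (1.57, adjusted p = 0.159), the code range as a covariate (2.15, adjusted p = 0.152), and the fits without chow replicate 1 or 2, HFD+STZ replicate 4, or METTL3 replicate 1, 2 or 4 (adjusted p 0.0606 to 0.107).

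The readers also differed in how they varied together over the 11 hearts. Pearson's r of log2 CPM, given as a description over libraries that share groups, was 0.883 for Ythdf2 with Ythdc1 and 0.729 for Ythdf1 with either, and 0.346 for Ythdf1 with Ythdf3. The values that follow were picked as the highest r among the tested genes, with no background value, so a high r alone shows no link. The part of transcript GC content in them was not tested. The genes most like Ythdf3 were Ppp1r14c (0.968), Thoc2 (0.965) and Luc7l2 (0.956), and those most like Ythdc1 were Dhx36 (0.966), Zfp959 (0.958) and Klhl28 (0.943). For Ythdf1 they were Ccnc (0.937), Pigm (0.928) and St13 (0.927), and for Ythdf2 Tmem18 (0.955), Scoc (0.947) and Tcf7l2 (0.944). Ythdc2 followed Kpna3 (0.898), Gpr89 (0.869) and Crot (0.864) less closely. Igf2bp2 was nearest to Dirc2 (0.951), Atp8a2 (0.941) and Masp1 (0.913), and Igf2bp3, from its few counts, to Tmed10-ps (0.923), Efna5 (0.92) and Itpk1 (0.919).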

How the data were processed

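Per the labels, frozen whole hearts were extracted with Trizol, depleted of ribosomal RNA with RiboZero and built into libraries with a NEB kit. The authors deposited whole-number read counts per gene; FastQC, Salmon and mm10 are named, without versions, per the submitters' processing notes. Neither the rounding to whole numbers nor the strand setting is stated. Gene symbols, coordinates and lengths are those of the count table. GC content came from GENCODE M21 transcripts and was known for 99.9% of the tested genes.

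The deposited counts of all 11 libraries were fitted together with edgeR 4.0.16 (R 4.3.3): filterByExpr (minimum count 10, total 15), TMM library sizes, and the quasi-likelihood F test by group, with Benjamini-Hochberg adjustment over 14862 genes and a threshold of 0.05. CPM values use TMM library sizes. Ratios were compared by two-sided exact permutation. Alternatives were DESeq2 1.42.0, limma voom 3.58.1 with quality weights, other library sizes, no filter, fits of only the groups compared, a replicate block, the code range as covariate, GC and length offsets (loess span 0.5), and leaving libraries out.

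The text names all 8 readers, Mettl3, the genes of each pathway list past the threshold (up to 4) or else the 2 with the smallest p, and the 3 genes most correlated with each reader, leaving out predicted symbols. The members and lists were chosen with earlier results of these data known. The labels do not say that each library is a separate animal, so p-values reflect only how these samples spread, which may be technical.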

Additional observations from a re-analysis of the deposited data

How the results depend on the processing

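Of 550 values of single genes under alternatives, 499 kept their direction and side of the threshold and 22 reversed. Another 6 came to pass the threshold, and 23, those of Cnot7 and H19, no longer did. The 499 overstate stability. Leaving out a library of the group not compared hardly moves a value: Ythdf1 in HFD+STZ against chow stayed from -0.0855 to -0.0847 without any one METTL3 replicate. Where DESeq2 gave no adjusted p, the side of the main fit was kept. No reader passed in the main fit, so for readers the same side means not passing. The number of readers past the threshold in METTL3 against HFD+STZ was 1 with limma voom and 0 elsewhere, and in HFD+STZ against chow 0 throughout. In METTL3 against chow it was 1 with DESeq2, 2 with limma voom, 1 when chow replicate 3 and HFD+STZ replicate 1 were left out together (Ythdf3, log2 fold change 0.52), and from 0 to 1 when libraries were left out in turn, the 1 being Ythdf3 at 0.76 without chow replicate 1 (edgeR adjusted p = 0.0434). The labels do not say whether the replicate numbers pair the samples. In deviations from group means, same-numbered libraries correlated from -0.229 to 0.162 (10 pairs) and others from -0.189 to 0.22. Of 11 libraries, 2 correlated best with their own number. Deviations from the means of such small groups depend on each other, so these values cannot exclude pairing. With the replicate block, 0 readers passed in each comparison, and calls over all genes went from 25 to 2 in HFD+STZ against chow, stayed at 0 in METTL3 against HFD+STZ, and went from 475 to 5 in METTL3 against chow; with GC and length offsets as well they were 3, 0 and 11.

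Some values of HFD+STZ against chow changed sign. Ythdf1 was 0.0779 with limma voom, 0.0506 with the code range as covariate, 0.0307 without chow replicate 3 and HFD+STZ replicate 1 together, and from -0.153 to 0.0541 with libraries left out in turn. Ythdf2 was 0.0923 with the code range and from -0.133 to 0.0223 with libraries left out in turn, Ythdc2 was -0.115 with the code range, and Igf2bp3 went from -1.05 to 0.257 with libraries left out in turn. In METTL3 against chow, Ythdc1 was -0.43 with GC and length offsets, -0.0527 with those of coding transcripts and -0.40 with the replicate block and offsets. Igf2bp3 there was -0.48 with limma voom, -0.34 with the code range, from -0.02 (without chow replicate 3) to 1.28 with libraries left out in turn, and -0.0164 with chow replicate 3 and HFD+STZ replicate 1 both left out.

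Total counts with no TMM factors, added after seeing the data, moved the median of all genes to -0.26, -0.24 and -0.50 in HFD+STZ against chow, METTL3 against HFD+STZ and METTL3 against chow. Ythdf3 was then -0.11 and Ythdc2 -0.0582 in HFD+STZ against chow, and in METTL3 against chow Ythdf1 was -0.29, Ythdf2 -0.27, Ythdc1 -0.33 and Igf2bp2 -0.0638. With libraries left out in turn, the Ythdf1 to Ythdf2 difference ran from -0.0535 to 0.0415 (HFD+STZ less chow), from -0.0783 to 0.0951 (METTL3 less HFD+STZ) and from -0.0829 to 0.0906 (METTL3 less chow), and with chow replicate 3 and HFD+STZ replicate 1 both left out the first was 0.0854 and the last 0.0256. The Ythdf3 to Ythdf1 difference of HFD+STZ from chow ran from -0.0255, without chow replicate 3, to 0.37. The causes of these shifts were not tested. Calls over all genes in METTL3 against HFD+STZ were 0 with edgeR (1346 at an unadjusted p under 0.05), 129 with DESeq2, 395 with limma voom and 403 without chow replicate 3 and HFD+STZ replicate 1. In METTL3 against chow they went from 1 (code range) to 3358 (total counts), and in HFD+STZ against chow from 0 (only the groups compared) to 1954 (limma voom).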
